A study of Mus musculus with 2 samples.

Results

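The genes described here are 8 members of the tumour necrosis factor (TNF) receptor family of costimulators and their ligands, chosen by name from the 31053 genes counted in each library. Of these, 7 encode receptors, namely Tnfrsf9 (4-1BB), Tnfrsf18 (GITR), Tnfrsf4 (OX40), Tnfrsf25 (DR3), Cd27, Tnfrsf13b (TACI) and Tnfrsf1b (TNFR2), and Cd70 encodes the ligand of CD27. Their RNA was measured in single live CD45+EpCAM-MHC-II- cells sorted from ear epidermis of wild-type (WT) FVB/NJ females aged 8 weeks, which had been given 10 μg antibody by intradermal injection 7 d earlier. One group received isotype control and the other received antibody to Skint1, a keratinocyte protein that dendritic epidermal T cells (DETCs) depend on for their selection in the thymus. Each group is 1 library with n = 1, where n counts individual mice unless the sources state otherwise.

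TNF receptors of this kind lack enzymatic activity and signal through TRAF adaptors to NF-κB and MAP kinases once a trimeric ligand on a neighbouring cell draws them together. On T cells they act beside the TCR, and several of them appear on the surface only after activation, whereas regulatory T cells carry GITR, OX40 and TNFR2 without it. DETCs are γδ T cells of mouse epidermis with an almost uniform Vγ5Vδ1 TCR, and they meet such ligands on keratinocytes and Langerhans cells.

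The libraries held 27272211 UMIs (unique molecular identifiers, each marking 1 counted mRNA molecule) in the isotype sample and 32450957 in the Skint1 antibody sample. Cells were barcodes with 500 to 2500 genes and no more than 12% of UMIs from mitochondrial genes, 4242 in the first library and 5961 in the second, and 8 barcodes with at least 500 genes occurred in both libraries. By their TCR and CD3 genes, 3544 and 4945 cells were DETCs, with a median of 4027.5 and 3577 UMIs per cell, and Trdv4 (the Vδ1 chain, which the rule did not use for DETCs) was found in 88.4% and 83.8% of them. There were 197 and 213 αβ T cells, defined by Trac without Trdv4. A further class, defined by Il7r, Rora and Gata3 with little CD3, held 82 and 139 cells, and it is called the ILC rule here since its markers bore the name out only in part. Il1rl1, the receptor for IL-33 on type 2 innate lymphoid cells, was found in 0 and 2 of these cells, Trac in 9 and 14, and the summed level of 9 keratinocyte genes was 528 and 4968 UMIs per 1000000 UMIs of the class (CPM), against 38.5 and 54.0 CPM in DETCs. Cells of no class numbered 428 and 678. All levels are CPM over the summed UMIs of a class, and intervals in parentheses are 95% intervals that cover counting error only. With 1 library per group no test between treatments was possible, and an effect of the antibody cannot be told apart from one of the library.

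On GRCm38 as annotated by GENCODE vM21, 5 of the 8 genes lie on chromosome 4, where Tnfrsf9 (ENSMUSG00000028965) spans chr4:150914562-150946102 on the plus strand and Tnfrsf1b (ENSMUSG00000028599) spans chr4:145213463-145246870 on the minus strand. Tnfrsf4 (ENSMUSG00000029075, chr4:156013843-156016612) and Tnfrsf18 (ENSMUSG00000041954, chr4:156026164-156028895) lie close together on the plus strand, with 9552 bases and the annotated genes Gm37090 and Gm25982 between the end of Tnfrsf4 and the start of Tnfrsf18, and Tnfrsf25 (ENSMUSG00000024793) is at chr4:152115934-152120119. Tnfrsf13b (ENSMUSG00000010142) lies at chr11:61126755-61149372, Cd27 (ENSMUSG00000030336) at chr6:125232622-125237010 and Cd70 (ENSMUSG00000019489) at chr17:57145997-57149777. Genes on the opposite strand overlap Tnfrsf9 (Camta1), Tnfrsf18 (Gm16008), Tnfrsf13b (Gm12269) and Cd27 (Vamp1), and how the counting treated strand is not given in the sources used here.

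The promoters of the 2 members that were lower in DETCs after Skint1 antibody, and of 1 that was not, are shown from RefSeq (GRCm38.p6), as 300 bases from 250 before to 50 after a start site, 5′ to 3′ on the strand of the gene. Capitals mark each match on either strand to a loose form of the NF-κB motif, GGG and CC with any 5 bases between them, and matches may overlap. The Tnfrsf9 window below starts inside the GENCODE gene, and RefSeq holds a second one at chr4:150919905-150920204 with 0 matches.
Tnfrsf9, chr4:150927749-150928048, plus strand: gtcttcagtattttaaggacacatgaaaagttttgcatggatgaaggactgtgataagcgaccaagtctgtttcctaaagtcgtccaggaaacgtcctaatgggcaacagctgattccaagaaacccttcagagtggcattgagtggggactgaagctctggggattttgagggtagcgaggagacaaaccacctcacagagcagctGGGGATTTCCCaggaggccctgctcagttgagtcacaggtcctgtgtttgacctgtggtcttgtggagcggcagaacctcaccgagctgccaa
Tnfrsf13b, chr11:61126505-61126804, plus strand: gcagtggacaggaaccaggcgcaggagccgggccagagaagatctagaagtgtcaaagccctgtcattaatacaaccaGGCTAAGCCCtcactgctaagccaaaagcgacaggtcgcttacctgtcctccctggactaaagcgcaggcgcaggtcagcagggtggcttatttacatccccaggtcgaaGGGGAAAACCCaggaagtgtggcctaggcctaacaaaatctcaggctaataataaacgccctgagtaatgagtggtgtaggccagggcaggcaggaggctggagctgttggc
Tnfrsf18, chr4:156026072-156026371, plus strand: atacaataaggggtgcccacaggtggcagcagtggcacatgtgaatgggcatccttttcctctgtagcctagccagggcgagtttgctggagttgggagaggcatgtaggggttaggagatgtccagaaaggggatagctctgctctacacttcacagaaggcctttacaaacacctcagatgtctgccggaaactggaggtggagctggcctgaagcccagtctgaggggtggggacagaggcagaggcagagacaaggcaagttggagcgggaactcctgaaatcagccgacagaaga
The window of Tnfrsf9 held 3 matches, that of Tnfrsf13b 4 and that of Tnfrsf18 none. Tnfrsf1b and Cd27, also within 1.5-fold between the libraries in DETCs, had windows with 3 matches each. Of the 9 windows found for 7 members 6 held a match, and so did 50.8% of 32851 such windows over all genes. No window was matched to Cd70.

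Tnfrsf9 and Tnfrsf13b were lower in DETCs from the Skint1 antibody library than in those from the isotype library, whereas Tnfrsf18 and Tnfrsf1b were nearly level. Tnfrsf9, the receptor of 4-1BBL on activated T cells, was at 124.69 CPM (119.04 to 130.54) in isotype DETCs, from 1828 UMIs, and at 63.5 CPM (59.9 to 67.2) in Skint1 antibody DETCs, from 1188 UMIs. This is a log2 ratio of -0.97 (-1.08 to -0.87), or 1.96-fold lower, and only 3 of the 7549 genes with a mean of at least 10 CPM had a lower ratio. Tnfrsf13b, a receptor of BAFF and APRIL best known on B cells, was at 69.0 CPM (64.8 to 73.4) and 39.9 CPM (37.1 to 42.9), a log2 ratio of -0.79 (-0.93 to -0.65) that ranked 13 from the lowest. In the same cells 7 B cell markers summed to 102 and 88.3 CPM, with Igkc at 0 in both libraries, and their part in the level of Tnfrsf13b was not tested.

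Tnfrsf18, the receptor of GITRL, was at 178 CPM (171 to 185) in isotype DETCs and at 170.4 CPM (165 to 176) after Skint1 antibody. Its log2 ratio of -0.06 (-0.14 to 0.01) lay within counting error. Tnfrsf1b, the TNF receptor without a death domain, was at 68.6 CPM (64.4 to 73.0) and 61.5 CPM (58.0 to 65.1), a log2 ratio of -0.16 (-0.28 to -0.04) that was outside counting error and far from 1.5-fold. Cd27, which naive T cells carry and late effector cells lose, was at 10.7 CPM (9.10 to 12.5) and 13.0 CPM (11.4 to 14.7), a log2 ratio of 0.28 (-0.02 to 0.58). These 3 receptors therefore stayed within 1.5-fold between the libraries.

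The other 3 members were scarce in DETCs. Tnfrsf4, which binds OX40L, gave 17 UMIs in isotype and 32 in Skint1 antibody DETCs, or 1.16 CPM (0.676 to 1.86) and 1.71 CPM (1.17 to 2.41). Tnfrsf25, the receptor of TL1A, gave 26 UMIs in each library, or 1.77 CPM (1.16 to 2.60) and 1.39 CPM (0.908 to 2.04). Cd70 gave 6 and 5 UMIs, or 0.409 CPM (0.150 to 0.891) and 0.267 CPM (0.0868 to 0.624). Free RNA in the droplets, estimated from barcodes with 1 to 100 UMIs and keratin genes, would by itself give 0.476 and 0.346 CPM of Tnfrsf4, 0.243 and 0.267 CPM of Tnfrsf25 and 0.172 and 0.156 CPM of Cd70 in DETCs. Cd70 was thus not told apart from that background, whereas Tnfrsf4 and Tnfrsf25 lay above it at a low level. For Tnfrsf9 the estimate was 1.09 and 0.906 CPM.

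Of the 5 members with at least 10 CPM, 2 were lower by at least 1.5-fold after Skint1 antibody and 0 were higher, where 22 of the 7549 genes at that level were lower (0.291%) and 3 were higher (0.0397%). The median log2 ratio was -0.16 over the 5 members and -0.03 over all 7549 genes.

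**Figure D1:**
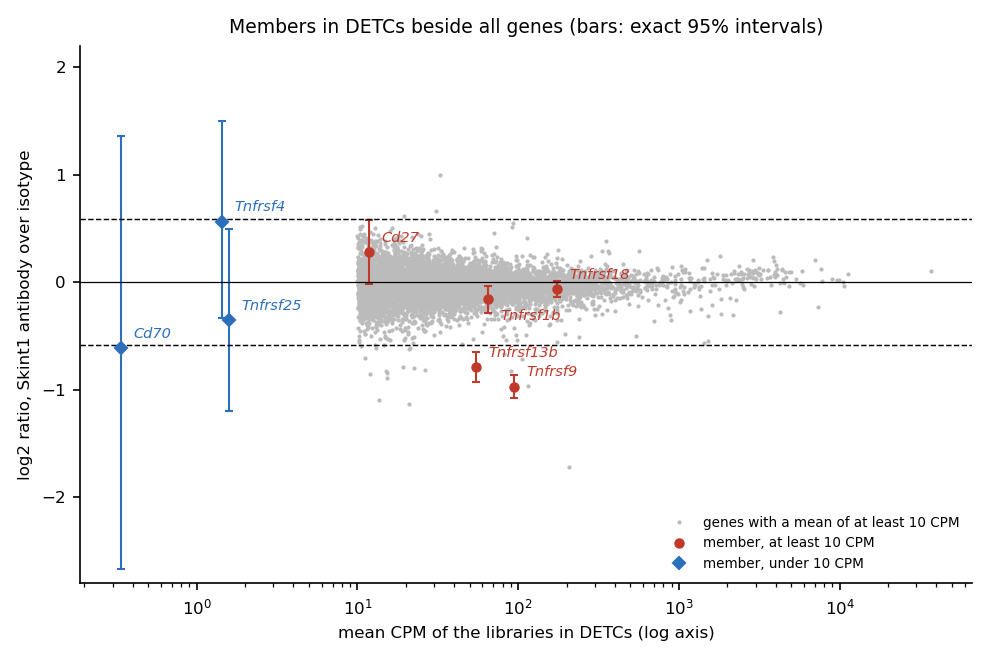
Log2 ratio of CPM in DETCs, Skint1 antibody over isotype, against the mean CPM of the libraries on a log axis, for all genes with a mean of at least 10 CPM (grey), the 5 members at that level (red circles) and the 3 below it (blue diamonds). Bars are exact 95% counting intervals and dashed lines mark 1.5-fold; Tnfrsf9 at -0.97 and Tnfrsf13b at -0.79 lie below the lower line, and Tnfrsf18, Tnfrsf1b and Cd27 lie between the lines.

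The difference in Tnfrsf9 was seen in the number of positive DETCs and in the number of UMIs they carried. DETCs were thinned to 2000 UMIs apiece, which left out 134 and 202 shallower DETCs, and Tnfrsf9 was then found in 16.4% of isotype and 9.95% of Skint1 antibody DETCs, a difference of -6.41 percentage points (-7.93 to -4.92). Before thinning the shares were 25.7% and 16.5%. Tnfrsf13b was found in 11.6% and 6.41%, a difference of -5.17 points (-6.47 to -3.91), and in 20.2% and 11.8% before thinning. Tnfrsf18 was found in 27.9% and 27.2%, which differed by -0.75 points (-2.72 to 1.21), and Tnfrsf1b in 12.2% and 11.5%, which differed by -0.70 points (-2.14 to 0.71). Barcodes of another cell type to set beside these shares were few, with 2 and 11 keratinocyte-like barcodes of a median of 4022 and 6892 UMIs. None of them had a UMI of Tnfrsf9, Tnfrsf13b or Tnfrsf1b, and 0 of 11 allows a share of up to 27.3%. Tnfrsf18 gave 2 and 3 UMIs in them, so they are no measure of background for Tnfrsf18.

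As a ratio of shares before thinning, the gap was widest among DETCs with many Tnfrsf9 UMIs. Those with 5 or more UMIs numbered 61 in the isotype library, which is 1.72% of DETCs and 27.7% of all their Tnfrsf9 UMIs, and 18 in the Skint1 antibody library, which is 0.364% of DETCs and 10.6% of the UMIs. The highest single cell had 23 UMIs with isotype and 15 with Skint1 antibody. Positive DETCs carried a mean of 2.01 and 1.45 UMIs of Tnfrsf9, and for Tnfrsf13b the means were 1.41 and 1.28. For Tnfrsf18, nearly level in CPM, the share of DETCs with 5 or more UMIs also fell, from 1.02% to 0.526%. Its means were 1.64 and 1.51. Isotype DETCs were the deeper ones, and the part of depth in these unthinned counts was not tested. The 10 highest DETCs held 8.53% and 7.24% of the Tnfrsf9 UMIs, so its level did not rest on a handful of cells. DETCs with no UMI of any of the 8 genes numbered 954 of 3544 and 1660 of 4945.

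**Figure D2:**
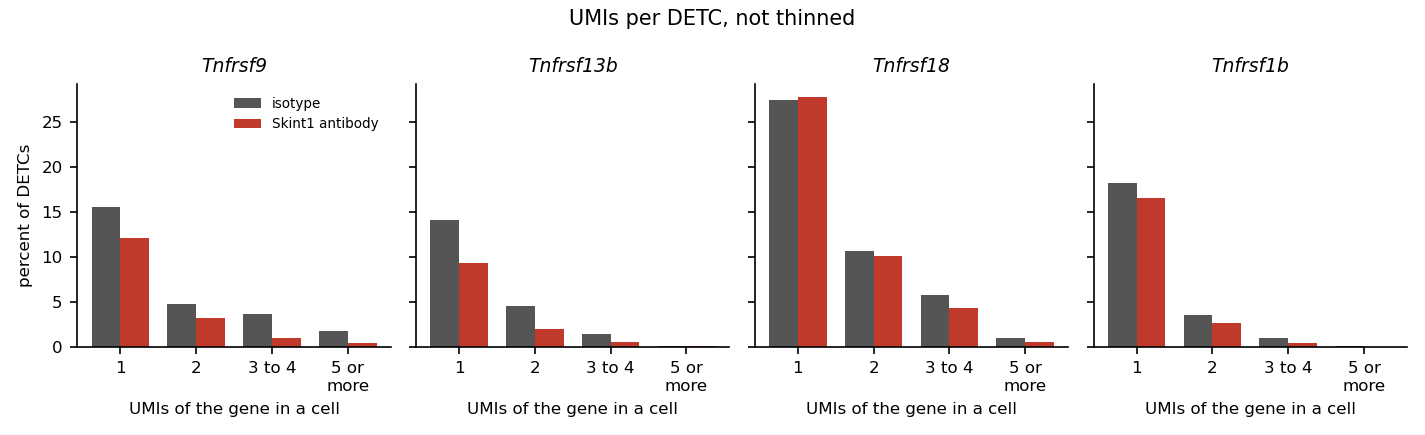
Percent of DETCs (not thinned) with 1, 2, 3 to 4, or 5 or more UMIs of Tnfrsf9, Tnfrsf13b, Tnfrsf18 and Tnfrsf1b, in the isotype library (grey bars) and the Skint1 antibody library (red bars). The red bars of Tnfrsf9 and Tnfrsf13b are the lower ones in each class of up to 4 UMIs. The class of 5 or more goes from 1.72% to 0.364% for Tnfrsf9 and from 1.02% to 0.526% for Tnfrsf18, whose bars of 1 UMI are nearly level.

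Within DETCs, Tnfrsf9 was higher in cells with the effector genes Xcl1 (the chemokine lymphotactin) and Gzmc (granzyme C). These genes were themselves lower in the Skint1 antibody library, Xcl1 at 319 and 96.7 CPM and Gzmc at 228 and 164 CPM over all DETCs, so the split need not take the same kind of cell from each library, and its ratios between libraries are a description. DETCs with a UMI of either gene after thinning numbered 651 of 3410 isotype and 471 of 4743 Skint1 antibody DETCs. In them Tnfrsf9 was at 316 CPM with isotype and 133 CPM with Skint1 antibody, which made the log2 ratio -1.25 (-1.45 to -1.04). In the DETCs with neither gene it was at 79.3 and 54.7 CPM, with a ratio of -0.54 (-0.67 to -0.40), so Tnfrsf9 was lower in both kinds of cell. Its level with Xcl1 or Gzmc over that without was 1.99 on the log2 scale in the isotype and 1.29 in the Skint1 antibody library, where the median gene was at -0.03 and -0.04.

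Tnfrsf13b was at 91.2 and 55.5 CPM in DETCs with Xcl1 or Gzmc, or -0.72 (-1.06 to -0.38) on the log2 scale, and at 63.5 and 38.4 CPM in those without, a ratio of -0.72 (-0.88 to -0.57). Its excess in cells with Xcl1 or Gzmc was 0.52 and 0.53, and that of Tnfrsf18 was 0.43 in the isotype and 0.24 in the Skint1 antibody library.

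Tnfrsf1b, Tnfrsf18 and Cd27 were higher in DETCs with more immediate early RNA (Fos, Egr1, Nr4a1 and 8 related genes, which follow TCR signalling and also cell isolation) in both libraries, whereas Tnfrsf9 was higher there in the Skint1 antibody library alone. DETCs were split at 10 and 26 immediate early UMIs after thinning, with 64 and 119 cells at the lower limit and 62 and 91 at the upper limit. From the low to the high group Tnfrsf1b was at 38.1, 79.1 and 87.8 CPM with isotype and at 33.0, 64.9 and 91.9 CPM with Skint1 antibody, which made high over low 1.20 (0.95 to 1.47) and 1.48 (1.25 to 1.71) on the log2 scale. For Tnfrsf18 high over low was 0.65 (0.50 to 0.79) and 0.68 (0.56 to 0.81), and for Cd27 it was 1.13 (0.51 to 1.77) and 0.78 (0.29 to 1.27). The median gene was at -0.22 and -0.19 in the same comparison.

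Tnfrsf9 was at 125, 129 and 119 CPM over these groups of isotype DETCs and at 55.7, 62.7 and 72.1 CPM over those of Skint1 antibody DETCs, which made high over low -0.07 (-0.24 to 0.10) and 0.37 (0.17 to 0.58) on the log2 scale. The library ratio of Tnfrsf9 was thus nearer 0 in DETCs with most immediate early RNA, at -0.72 (-0.91 to -0.53), than in those with least, at -1.17 (-1.36 to -0.98). Tnfrsf13b went the other way, from -0.30 (-0.54 to -0.07) in the low group to -1.08 (-1.35 to -0.82) in the high group. The difference in both receptors was therefore present at every level of immediate early RNA, in unequal amounts.

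Other properties of the cells moved with these results. Heat shock genes, which dissociation can induce, summed to 8118 CPM in isotype and 6216 CPM in Skint1 antibody DETCs. Within DETCs split at 7 and 15 heat shock UMIs the library ratio of Tnfrsf9 was -0.77, -1.09 and -1.25 from low to high, so it was as large or larger in all but the low group. By total UMIs per cell it was -0.82, -1.10 and -0.98, and in DETCs with 3 or more UMIs of proliferation genes (183 and 174 cells) it was -1.02 (-1.45 to -0.59). In DETCs without a Trdv4 UMI after thinning it was -0.62 (-0.84 to -0.40), and in those with one -1.09 (-1.21 to -0.96). Tnfrsf9 was at 94.9 and 61.7 CPM in the former and at 134.9 and 63.5 CPM in the latter.

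For Tnfrsf13b the ratio by total UMIs per cell was -0.85, -0.99 and -0.45, and its level went from 46.3 to 73.6 CPM with depth among isotype DETCs and from 25.6 to 54.0 CPM among the others. DETCs with 8 to 12% mitochondrial UMIs were an exception for Tnfrsf13b, with a ratio of 0.21 (-0.39 to 0.82) over 213 and 234 cells, against -0.69 (-0.95 to -0.44) at up to 5% and -0.92 (-1.10 to -0.75) between. Tnfrsf9 was at -0.51 (-0.996 to -0.029) in that group. The share of DETCs it holds is small, 6.25% and 4.93% of the thinned cells.

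**Figure D3:**
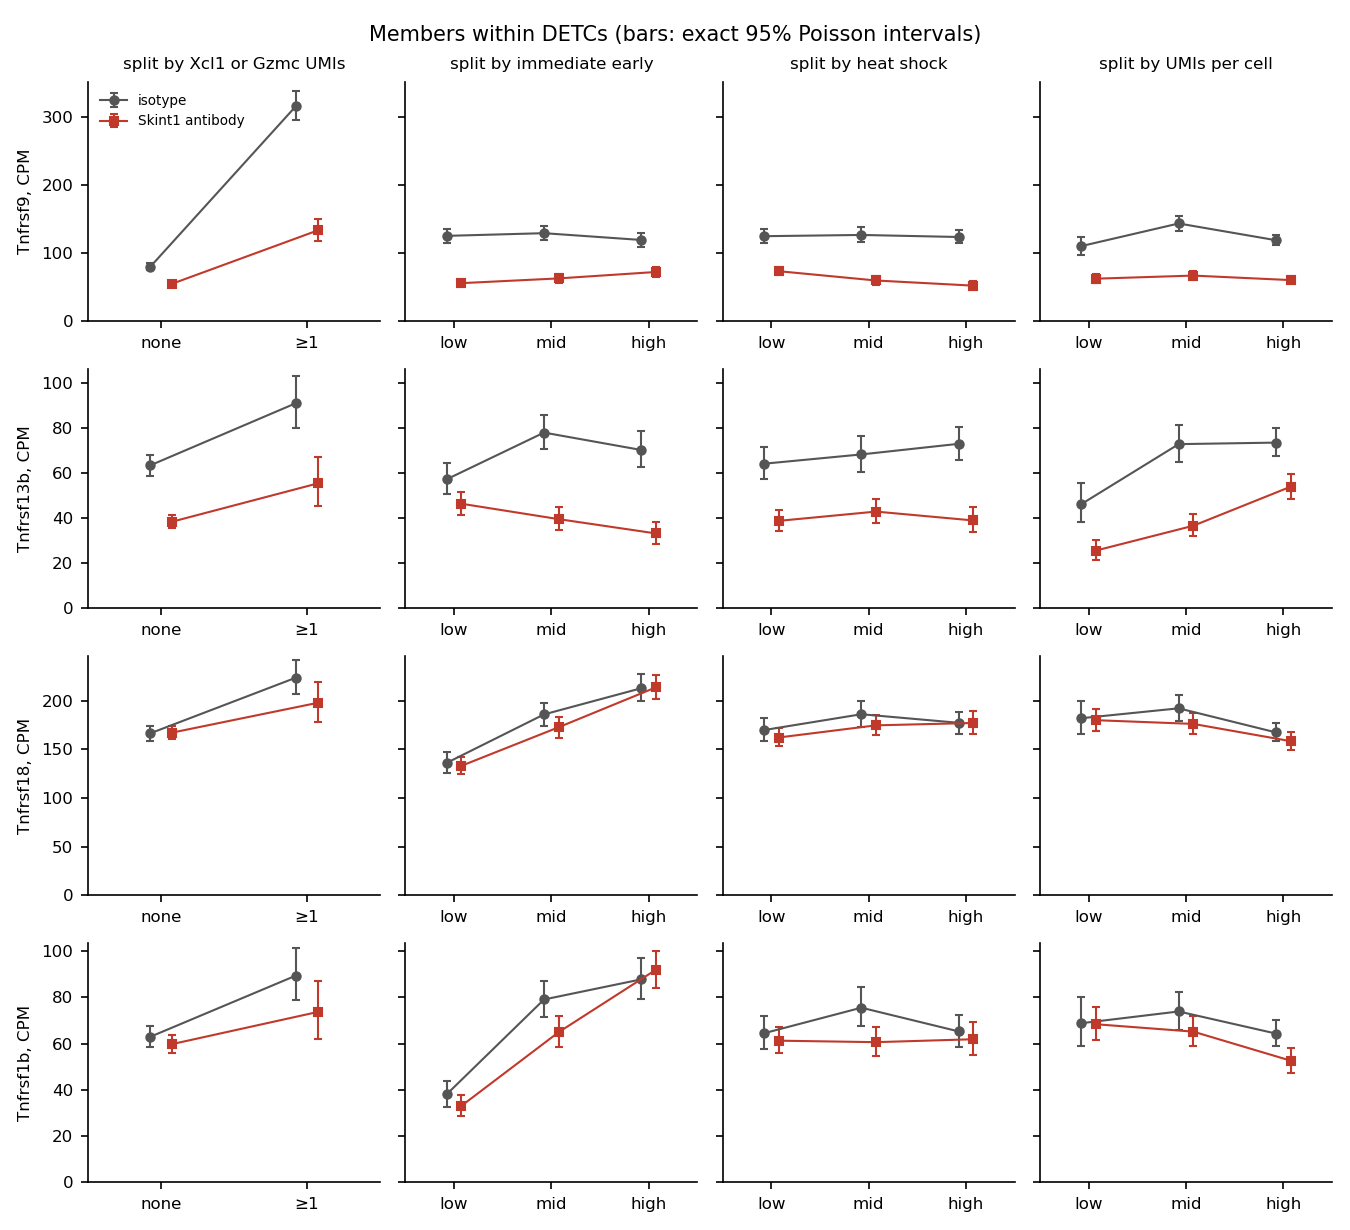
CPM of Tnfrsf9, Tnfrsf13b, Tnfrsf18 and Tnfrsf1b (rows) in DETCs split by UMIs of Xcl1 or Gzmc, of immediate early genes, of heat shock genes and in total (columns), with isotype in grey and Skint1 antibody in red. Bars are exact 95% Poisson intervals; Tnfrsf9 reaches 316 CPM in isotype DETCs with Xcl1 or Gzmc and 133 CPM in those of the Skint1 antibody library, and Tnfrsf1b climbs with immediate early RNA in both.

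Across cell classes Tnfrsf18, Tnfrsf13b and Tnfrsf1b were within 2-fold between DETCs and αβ T cells, Tnfrsf4, Tnfrsf25 and Cd70 were scarce in DETCs, and Tnfrsf9 depended on few αβ T cells. In αβ T cells 4 of the 8, Tnfrsf4, Tnfrsf25, Cd27 and Cd70, were higher than in DETCs by at least 2-fold in both libraries, and 0 were lower. Over all 7512 genes with a mean of at least 10 CPM, 5.11% were higher and 8.65% lower. Tnfrsf4, Tnfrsf25 and Cd70 reached 10 CPM through αβ T cells alone, so that they counted as higher was fixed by the filter, and the count is no support for a difference. The median log2 ratio of all genes was -0.12 in the isotype and -0.17 in the Skint1 antibody library.

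Tnfrsf4 differed most, at 255 CPM in isotype and 160.2 CPM in Skint1 antibody αβ T cells, 7.78 (7.06 to 8.59) and 6.55 (5.98 to 7.15) above DETCs on the log2 scale. Tnfrsf25 was at 87.4 and 89.7 CPM, 5.62 (4.96 to 6.33) and 6.01 (5.35 to 6.71) above. Cd27 was at 54.9 and 52.6 CPM, 2.36 (1.84 to 2.85) and 2.02 (1.52 to 2.49) above. These 3 genes counted because they were higher in both libraries, so the same order of the classes in each was fixed by the rule.

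Cd70, which activated lymphocytes put out for CD27, was at 41.2 CPM in isotype αβ T cells, from 33 UMIs in 11 cells, and at 11.96 CPM in Skint1 antibody αβ T cells, from 10 UMIs in 7 cells. It was 6.65 (5.38 to 8.1996) and 5.48 (3.80 to 7.38) above the level in DETCs, which was not told apart from free RNA and makes these ratios inexact, and it no longer counted as higher when each cell was thinned or weighted equally. Between the libraries its log2 ratio in αβ T cells was -1.79 (-2.97 to -0.73).

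The other receptors were closer. Tnfrsf18 was at 269 and 230 CPM in αβ T cells, 0.59 (0.38 to 0.79) and 0.43 (0.21 to 0.64) above DETCs, which became 0.08 (-0.18 to 0.33) and 0.31 (0.08 to 0.53) without Foxp3+ cells. Tnfrsf13b was at 51.2 and 32.3 CPM, with ratios to DETCs of -0.43 (-0.92 to 0.02) and -0.31 (-0.92 to 0.25), and without Foxp3+ cells these were -0.91 (-1.51 to -0.36) and -0.41 (-1.07 to 0.17), so only in the isotype library were the other αβ T cells told apart from DETCs. Between the libraries Tnfrsf13b had a log2 ratio of -0.67 (-1.42 to 0.07) in αβ T cells. It was found in 7.89% and 3.06% of thinned αβ T cells, a difference of -4.83 points (-9.83 to -0.22). Tnfrsf1b was at 91.2 and 63.4 CPM, 0.41 (0.05 to 0.75) and 0.04 (-0.38 to 0.44) above DETCs, and without Foxp3+ cells these were -0.01 (-0.45 to 0.40) and -0.30 (-0.79 to 0.15).

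Tnfrsf9 was at 109 CPM (87.0 to 134) and 105 CPM (84.4 to 129.6) in αβ T cells, a log2 ratio between libraries of -0.05 (-0.49 to 0.40). Against DETCs it was at -0.20 (-0.53 to 0.11) in the isotype and 0.73 (0.40 to 1.04) in the other library, and without Foxp3+ cells these became -2.05 (-2.73 to -1.45) and -0.54 (-1.07 to -0.06). Most of its αβ T cell UMIs came from few cells, as 27 and 26 cells had any. Foxp3+ cells therefore set where αβ T cells as a whole stood relative to DETCs for Tnfrsf9.

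**Figure D4:**
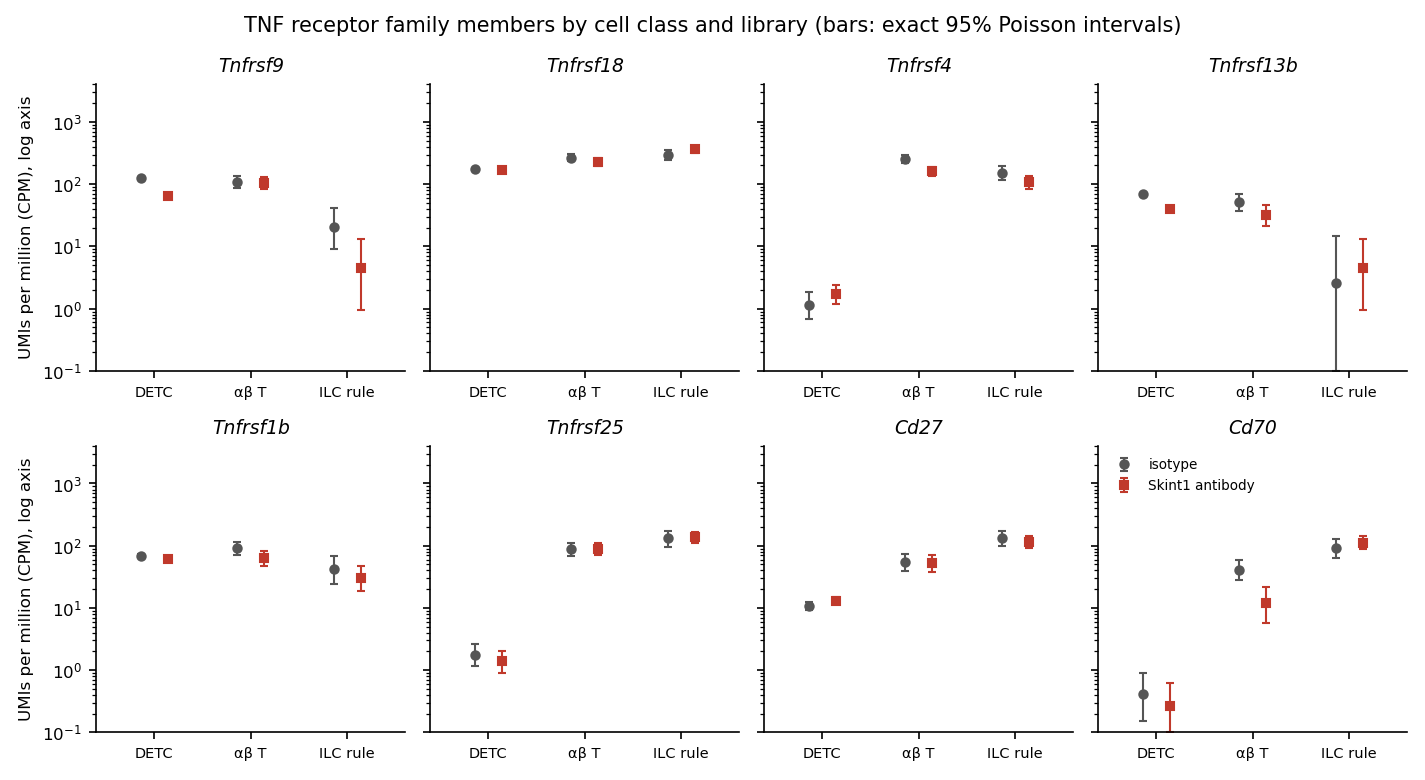
CPM on a log axis of the 8 members in DETCs, αβ T cells and cells of the ILC rule, with isotype as grey circles and Skint1 antibody as red squares. Bars are exact 95% Poisson intervals, some of which run below the axis; Tnfrsf4, Tnfrsf25 and Cd70 are under 2 CPM in DETCs and over 10 CPM in the other classes, and Tnfrsf9 and Tnfrsf13b are lowest in cells of the ILC rule.

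Among αβ T cells, those with a UMI of Foxp3, the factor that defines regulatory T cells, carried most of the Tnfrsf9. They numbered 17 in the isotype and 12 in the Skint1 antibody library, or 8.63% and 5.63% of αβ T cells, and held 74.7% and 60.2% of their Tnfrsf9 UMIs. Tnfrsf9 was at 958 CPM (739 to 1220.5) in isotype Foxp3+ cells, from 65 UMIs in 14 cells, and at 1490 CPM (1116 to 1949) in Skint1 antibody Foxp3+ cells, from 53 UMIs in 6 cells. The rest of the αβ T cells had 30.0 and 43.7 CPM. In both libraries Foxp3+ cells thus had more Tnfrsf9 per UMI than DETCs, by 2.94 (2.56 to 3.30) and 4.55 (4.13 to 4.95) on the log2 scale.

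Foxp3+ cells also held 57.8% of the Tnfrsf4 UMIs of αβ T cells with isotype and 23.1% with Skint1 antibody, and 35.8% and 11.98% of the Tnfrsf18 UMIs. In them Tnfrsf4 was at 1738 and 872 CPM, a log2 ratio between libraries of -0.996 (-1.62 to -0.41), and Tnfrsf18 stood at 1134 and 647 CPM, with a ratio of -0.81 (-1.55 to -0.12). Without Foxp3+ cells, Tnfrsf4 in αβ T cells was at 117 and 129 CPM and Tnfrsf18 at 188 and 211 CPM, so the lower Tnfrsf4 in Skint1 antibody αβ T cells as a whole, with a log2 ratio of -0.67 (-0.99 to -0.35), was not seen in the rest of these cells. Few cells stand behind these values, and intervals on UMIs do not cover the spread between cells. Of thinned Foxp3+ cells (15 and 8), 73.3% and 75% had Tnfrsf4 and 86.7% and 37.5% had Tnfrsf18. In Foxp3+ cells proliferation genes summed to 1650 and 253 CPM and Trdc was at 58.9 and 281 CPM, and their part in these ratios was not tested.

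Tnfrsf1b, a receptor typical of activated regulatory T cells, was at 339 and 366 CPM in Foxp3+ cells, against 88.0 and 61.6 CPM in Cd4+Foxp3- and 72.4 and 42.8 CPM in Cd8+ αβ T cells. Tnfrsf25 was spread more evenly, at 73.7 and 141 CPM in Foxp3+ cells and at 107 and 118 CPM in Cd4+Foxp3- cells, and only 7.14% and 6.67% of its UMIs were in Foxp3+ cells. Tnfrsf4 was at 251 and 246 CPM in the 44 and 44 Cd4+Foxp3- cells, whereas the Cd8+ cells gave no UMI in the isotype library (25 cells, which allows up to 27.1 CPM) and 3 in the Skint1 antibody library (17 cells). Cd27 was at 177 and 141 CPM in Foxp3+, at 63.3 and 128 CPM in Cd8+ and at 6.28 and 33.6 CPM in Cd4+Foxp3- cells, the last from 1 and 6 UMIs.

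**Figure D5:**
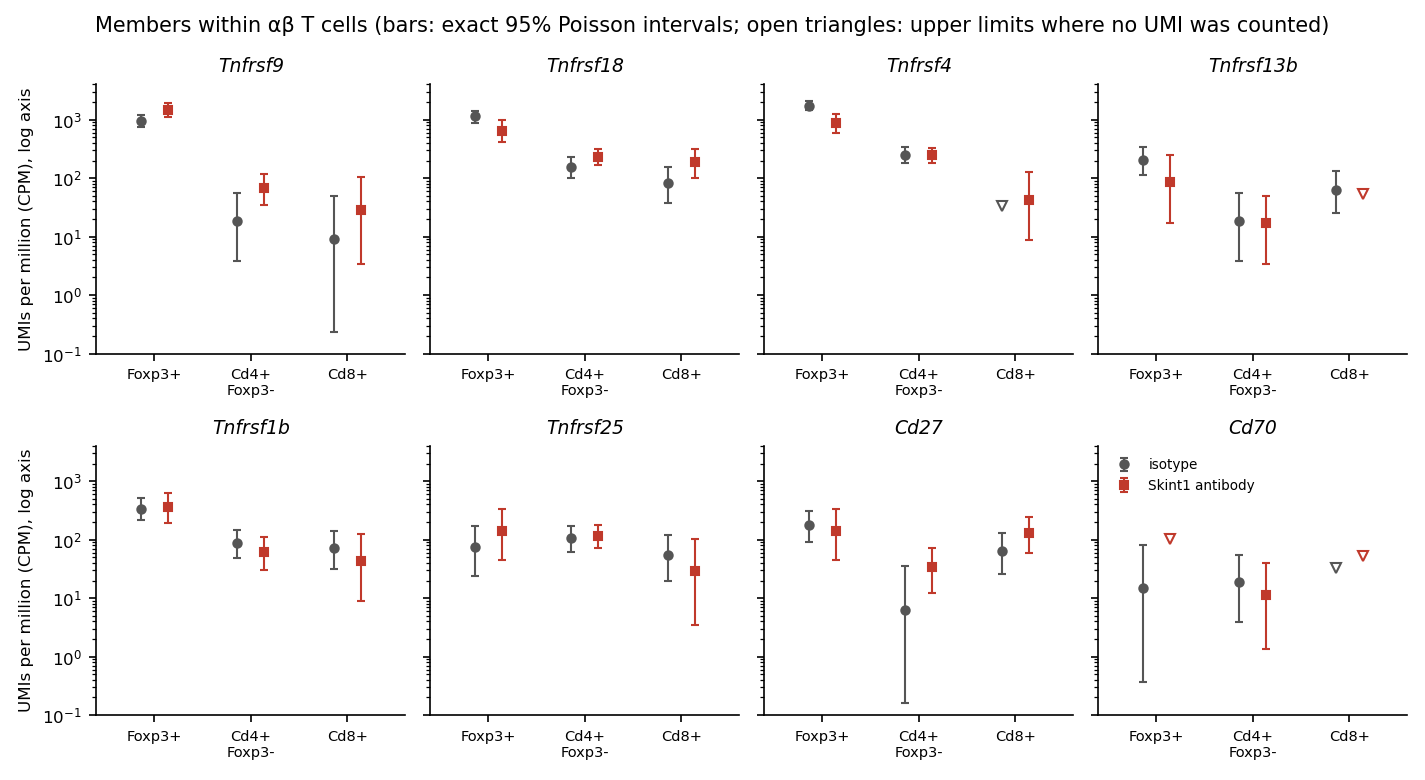
CPM on a log axis of the 8 members in Foxp3+, Cd4+Foxp3- and Cd8+ αβ T cells, with isotype as grey circles and Skint1 antibody as red squares. Bars are exact 95% Poisson intervals and open triangles are upper limits where no UMI was counted; Tnfrsf9, Tnfrsf18 and Tnfrsf1b are highest in Foxp3+ cells, and Tnfrsf4 goes from 1738 and 872 CPM there to 0 and 3 UMIs in Cd8+ cells.

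Cells of the ILC rule had more Tnfrsf4, Tnfrsf25, Cd27 and Cd70 than DETCs and less Tnfrsf9 and Tnfrsf13b. Compared with DETCs, 4 of the 8 members were higher by at least 2-fold in both libraries, where 6.78% of 7594 genes were, and 2 were lower, where 11.5% of genes were. Tnfrsf4, Tnfrsf25 and Cd70 again passed the filter only through the class in which they are high, so the first count is a description. The median log2 ratio over all genes was -0.10 and -0.16. Cd70 was at 91.4 CPM (63.7 to 127) in the isotype and 112 CPM (88.1 to 141) in the Skint1 antibody library, 7.80 (6.54 to 9.34) and 8.71 (7.43 to 10.4) above a level in DETCs that, as for αβ T cells, was not told apart from free RNA. Its receptor Cd27 was at 133 CPM (99.2 to 175) and 115 CPM (90.8 to 144), 3.64 (3.15 to 4.10) and 3.15 (2.76 to 3.53) above. A UMI of Cd27 was found in 33 of 82 and 50 of 139 cells and one of Cd70 in 17 and 29, and 5 and 8 cells had both.

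Tnfrsf25, through which TL1A costimulates innate lymphoid cells, was at 131 and 136 CPM, 6.20 (5.49 to 6.95) and 6.62 (5.97 to 7.31) above DETCs. Tnfrsf4 was at 154 and 108 CPM, 7.05 (6.26 to 7.93) and 5.98 (5.35 to 6.63) above. Tnfrsf18 was at 292 and 365 CPM, 0.72 (0.43 to 0.99) and 1.10 (0.91 to 1.29) above, and these became -0.67 and -0.47 without the upper limit on genes. That setting added 52 and 81 barcodes to the class, of which 45 and 80 had 20 or more UMIs of keratinocyte genes. Tnfrsf4 and Tnfrsf25 were found together in 11 and 22 cells, of 19 and 38 with Tnfrsf4 and 30 and 64 with Tnfrsf25.

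Tnfrsf9 gave 8 and 3 UMIs in the class, or 20.9 CPM (9.02 to 41.2) and 4.55 CPM (0.938 to 13.3), with ratios to DETCs of -2.58 (-3.79 to -1.60) and -3.80 (-6.08 to -2.25). Tnfrsf13b gave 1 and 3 UMIs, with ratios of -4.72 (-10.03 to -2.24) and -3.13 (-5.41 to -1.58). Tnfrsf1b was at 41.8 and 30.3 CPM, with ratios of -0.72 (-1.53 to -0.01) and -1.02 (-1.74 to -0.39). After barcodes with genes of other cells were left out (1 and 10 for keratin, 2 and 2 for myeloid genes, 9 and 14 for Trac), 70 and 113 cells remained and their keratin level went from 483 to 18.5 CPM and from 3852 to 27.7 CPM. Among these cells Cd70 was at 102 and 137 CPM, Cd27 at 129 and 143 CPM, Tnfrsf4 at 151 and 127 CPM, Tnfrsf25 at 151 and 164 CPM and Tnfrsf9 at 18.5 and 5.94 CPM, and the same 6 members stayed past 2-fold.

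Set against cells of the ILC rule, αβ T cells had more Tnfrsf9, by 2.38 (1.34 to 3.64) and 4.53 (2.94 to 6.84) on the log2 scale, and more Tnfrsf13b, by 4.29 (1.73 to 9.63) and 2.83 (1.13 to 5.19). Without Foxp3+ cells the ratios of Tnfrsf9 were 0.52 (-0.70 to 1.90) and 3.26 (1.60 to 5.61), so in the isotype library the rest of the αβ T cells was not told apart from cells of the ILC rule. Tnfrsf18 was at -0.12 (-0.46 to 0.22) and -0.67 (-0.95 to -0.39) in the same comparison, or at -0.64 (-1.01 to -0.26) and -0.79 (-1.08 to -0.50) without Foxp3+ cells. Cd27 was lower in αβ T cells by a log2 ratio of -1.28 in the isotype and -1.13 in the Skint1 antibody library, and Cd70 by -1.15 and -3.23. Between the libraries, no member in cells of the ILC rule had an interval that left 0 except Tnfrsf9, with a ratio of -2.20 (-4.75 to -0.14) on 8 and 3 UMIs. Without barcodes that held genes of other cells it was at -1.64 (-4.27 to 0.59), and the one interval that left 0 was that of Tnfrsf18, at 0.40 (0.05 to 0.76).

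Of the ligands of these receptors, Tnfsf18, Tnfsf4, Tnfsf13, Tnfsf13b and Tnfsf15 were sparse in the sorted cells, which were gated against keratinocytes and Langerhans cells, whereas Tnfsf9, Tnf and Lta were not. Tnfsf9 (4-1BBL) was at 5.46 and 5.83 CPM in DETCs and at 86.2 and 67.0 CPM in αβ T cells. In cells of the ILC rule it was at 31.3 and 77.3 CPM, from 12 and 51 UMIs, a log2 ratio between libraries of 1.30 (0.38 to 2.35), and of 1.65 (0.60 to 2.87) without barcodes that held genes of other cells. Tnfsf18 (GITRL) had no UMI in DETCs, which allows up to 0.205 and 0.160 CPM, and Tnfsf13 (APRIL) had none in the 3 classes. Tnfsf4 (OX40L) gave 1 and 2 UMIs in DETCs, Tnfsf15 (TL1A) 8 and 5, and Tnfsf13b (BAFF) 10 and 15.

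The ligands of Tnfrsf1b were found in every class. Tnf was at 81.3 and 85.3 CPM in DETCs and at 145 and 166 CPM in αβ T cells, and Lta at 32.9 and 31.7 CPM in DETCs and 56.2 and 98.0 CPM in αβ T cells. In DETCs their log2 ratios between libraries were 0.07 (-0.04 to 0.18) and -0.06 (-0.23 to 0.12), within counting error. In αβ T cells Lta had a ratio of 0.80 (0.26 to 1.36), and in cells of the ILC rule Tnf had one of 1.02 (0.35 to 1.74), which fell within counting error, at 0.32 (-0.49 to 1.18), without barcodes that held genes of other cells. In the αβ T cells Trdc was at 300 and 546 CPM and immediate early genes summed to 5919 and 7172 CPM. Their part in the ratio of Lta was not tested.

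Genes of the wider pathway with at least 10 CPM differed by less than 1.5-fold between the libraries in DETCs, Havcr2 excepted. Of other TNF receptors with at least 10 CPM 0 of 4 were past 1.5-fold between the libraries, of ligands 0 of 6, of TRAF and proximal adaptors 0 of 15, of NF-κB subunits, targets and feedback genes 0 of 18, and of other costimulatory receptors 0 of 9. Their median log2 ratios were 0.00, 0.05, -0.02, -0.01 and -0.12 in the same order, against -0.03 over all genes. As 0.291% of all genes were lower and 0.0397% higher by this rule, counts of 0 say little about lists of this size. Below 1.5-fold, members of these lists differed in both directions by more than counting error. Of the 56 genes tested, with the inhibitory receptors, 16 had an interval below 0 and 7 one above 0, or 28.6% and 12.5%, against 15.6% and 7.96% of all 7549 genes. The costimulatory receptors Slamf1 and Cd82 had log2 ratios of -0.45 (-0.65 to -0.26) and -0.36 (-0.53 to -0.20). The NF-κB subunits Rel and Nfkb1 had log2 ratios of -0.38 (-0.47 to -0.29) and -0.25 (-0.33 to -0.17), and Tnfaip3, which encodes the NF-κB inhibitor A20, had one of -0.20 (-0.26 to -0.14). Traf4 was at -0.35 (-0.46 to -0.24) and Il2rb, a receptor chain for IL-2 and IL-15, at -0.26 (-0.33 to -0.19). Higher were the NF-κB subunit Relb, at 0.19 (0.07 to 0.31), the survival gene Bcl2l1, at 0.36 (0.09 to 0.64), Bcl3, at 0.33 (0.04 to 0.62), and Tnip1, at 0.13 (0.01 to 0.25). Of the other lists, Traf3 was at 0.28 (0.02 to 0.55), Ltb at 0.17 (0.12 to 0.22) and Cd2 at 0.11 (0.04 to 0.17). Traf1, an adaptor that 4-1BB recruits and NF-κB induces, was at 211 and 199 CPM in DETCs, with a ratio of -0.08 (-0.15 to -0.01). Of 4 inhibitory receptors tested (median -0.06), Havcr2 (TIM-3) was lower, at 19.8 and 10.7 CPM, a ratio of -0.89 (-1.15 to -0.62).

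Between classes a gene counted at 2-fold in both libraries, which 5.11% of all genes reached as higher in αβ T cells than in DETCs and 8.65% as lower, with a median of -0.12 and -0.17. A gene under 10 CPM in DETCs is tested only through the class in which it is high, so counts of higher genes and the medians that hold them are descriptions. Of the genes counted as higher in αβ T cells, 4 of 5 ligands, 8 of 10 other costimulatory receptors, 1 of 4 NF-κB genes and 2 of 3 inhibitory receptors were of this kind, as were 207 of 384 over all genes. Of 11 ligands 5 were higher in αβ T cells (Ltb, Tnfsf9, Tnfsf11, Tnfsf14 and Cd40lg) and Tnfsf12 (TWEAK) was lower, with a median of 1.19 and 1.59. Cd40lg, the helper T cell ligand of CD40, was at 79.9 and 81.3 CPM in αβ T cells and at 5.46 and 7.11 CPM in DETCs. Of 18 other costimulatory receptors 10 were higher in αβ T cells, among them Cd5, Cd6, Slamf6, Cd84 and Cd28, and 4 were lower (Cd244, Klrk1, Cd96 and Crtam), with a median of 2.73 and 3.14. Cd28 was at 151 and 171 CPM in αβ T cells against 2.73 and 2.67 CPM in DETCs, whereas Cd244 (2B4) was at 67.4 and 90.9 CPM against 406 and 415 CPM. Cd28, like Tnfrsf4, Tnfrsf25 and Cd70, was under 10 CPM in DETCs and tested only through αβ T cells, so these differences are descriptions.

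Downstream of the receptors, Traf5, an adaptor of OX40, CD27 and GITR, was at 87.9 and 86.2 CPM in DETCs and at 25.0 and 20.3 CPM in αβ T cells. With Traf4 and Birc2 it made 3 of 16 adaptors that were lower in αβ T cells, and Tank was higher. With 8.65% of all genes lower and 5.11% higher, these are counts near the background, and the median of the adaptors was 0.24 and -0.19. Of 19 NF-κB genes 4 were higher (Nfkbiz, Bcl2l1, Bcl2a1b and Cyld) and 0 lower, of 4 other TNF receptors 0 were higher and 2 lower (Tnfrsf21 and Tnfrsf26), and of 6 inhibitory receptors 3 were higher (Ctla4, Cd274 and Nt5e) and 1 lower (Cd160). Bcl2a1b, a survival gene with near-identical copies among which reads can be split, was at 8.94 and 5.03 CPM in DETCs and at 126 and 112 CPM in αβ T cells.

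By the same rule 6.78% of all genes were higher and 11.5% lower in cells of the ILC rule than in DETCs. Under 10 CPM in DETCs were 325 of the 515 higher genes, and among them 3 of 6 ligands, 3 of 3 other TNF receptors, 2 of 3 NF-κB genes, 6 of 7 other costimulatory receptors and 2 of 3 inhibitory receptors, so these counts are descriptions too. Here 6 of 9 ligands were higher than in DETCs (Lta, Ltb, Tnfsf9, Tnfsf10, Tnfsf11 and Tnfsf14) and Tnfsf12 was lower. Of 7 other TNF receptors 3 were higher (Tnfrsf1a, Tnfrsf11a and Tnfrsf12a) and 2 lower (Tnfrsf21 and Tnfrsf26). Tnfrsf11a (RANK) was at 28.7 and 22.7 CPM in this class and at 0.477 and 0.0535 CPM in DETCs. Of 15 adaptors 1 was higher (Tank) and 4 lower (Traf4, Traf5, Birc2 and Map3k14), and of 20 NF-κB genes 3 were higher (Nfkb2, Bcl2a1b and Bcl2a1d) and 1 lower (Tnfaip3). The 1 higher adaptor and the 1 lower NF-κB gene were no more than the background gives for lists of this size. Of 15 other costimulatory receptors 7 were higher and 6 lower, and of 5 inhibitory receptors 3 were higher (Cd200r1, Cd274 and Nt5e) and 1 lower (Cd160). Traf5 was at 2.61 and 3.03 CPM there, from levels over 80 CPM in DETCs. Langerhans and myeloid genes (10 genes) summed to 1319 and 2012 CPM in cells of the ILC rule, against 18.3 and 16.0 CPM in DETCs. Leaving out the barcodes with genes of other cells brought these sums to 240.4 and 285 CPM, and Tnfrsf1a, Tnfrsf26 and Cd28 then no longer counted, while Bcl2l1 did. The ligands, adaptors and inhibitory receptors that counted were the same genes with and without those barcodes.

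Over the 6 sums of class and library, the genes whose profile lay nearest were sought among 7535 others with at least 10 CPM, by the root mean square distance of log2(CPM + 1) centred on its mean. Nearest to Tnfrsf18 were Pon2 (0.06), Nol12, Pik3c2a, Ahnak and Zfpm1 (up to 0.10), and nearest to Tnfrsf4 were Adgre5 (0.41), Ms4a6b, Pde4b, Stk26 and Cd84 (up to 0.61). Nearest to Tnfrsf9 were Diaph3 (0.43), B4galnt4, Crybg2, Ccr2 and Selenop (up to 0.60). Tnfrsf18 varied little over the 6 sums and Tnfrsf4 varied widely, so the distances cannot be set against each other between these genes. The genes nearest to Tnfrsf9 shared its low level in cells of the ILC rule but not its difference between libraries in DETCs. Ccr2, for one, was at 95.8 CPM in isotype and 108 CPM in Skint1 antibody DETCs.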

How the data were processed

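RNA of single sorted epidermal cells was measured in 2 libraries with 10x 3′ chemistry v3. The authors made the deposited UMI count matrices with Cell Ranger 3.0.2 on mm10 (GRCm38), and the values are raw counts per gene and barcode for 6794880 barcodes a library, with no cell filter. The total UMIs of a class set the precision of its levels.

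The members and the gene lists were chosen with earlier results of these data known. Barcodes had to have 500 to 2500 genes and 12% mitochondrial UMIs or less. DETCs had at least 3 Trdc UMIs, at least 3 of Cd3d, Cd3e and Cd3g, and none of Trac, Cd4, Cd8a or Cd8b1. The αβ T cells had at least 1 Trac UMI and no Trdv4. Cells of the ILC rule had at least 3 UMIs of Il7r, Rora and Gata3, at most 2 of the CD3 genes, and no Trdv4, and 9 and 14 cells met both of the last rules. Of the αβ T cells, 18 and 44 had 3 or more Trdc UMIs. UMIs were summed per class and library and given per 1000000 UMIs (CPM). A gene was tested at a mean of at least 10 CPM and called at 1.5-fold between libraries or at 2-fold in both libraries between classes. Calls are folds, with no p-value. Intervals (95%) are exact Poisson for levels, exact conditional binomial for ratios, Clopper-Pearson for shares and Newcombe's for differences of shares. A UMI count of 0 was taken to allow up to 3 UMIs. Shares and splits of DETCs used cells thinned to 2000 UMIs.

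Named genes were the 8 members, their ligands, up to 6 called genes per list, and the 5 genes nearest in profile to Tnfrsf9, Tnfrsf18 and Tnfrsf4. Traf1, Rel, Nfkb1, Tnfaip3, Traf4, Il2rb, Relb, Bcl2l1, Bcl3, Tnip1, Traf3, Ltb, Cd2, Slamf1, Cd82, Cd28, Traf5 and Tnfrsf11a, which are given with their values, and the genes named beyond 6 in a list were picked out after their values were seen. So were the genes under 10 CPM named for their ratio between the libraries in DETCs, namely Icos, Bcl2a1b, Il2ra, Pdcd1, Lair1, Cd40, Cd226 and Cd6. Scrublet (scanpy 1.11.5) scored doublets, and its own threshold marked 1 of 4709 and 0 of 6425 barcodes, so the highest scores at 0.8% per 1000 barcodes (177 and 330, of which 125 and 253 passed the filter) were left out in an alternative only. Python 3.11.15, numpy 2.4.6, scipy 1.17.1, pandas 2.3.3 and matplotlib 3.10.9 were used, and the ratios, intervals and thinning were tested on simulated data. Alternatives changed the cell filters, class rules, doublets, scaling, weight of cells, depth, free RNA, the CPM filter and the cells with most UMIs. Leaving Foxp3+ cells out of αβ T cells, other cells' barcodes out of the ILC rule, and using the free-RNA share of DETCs for the ILC rule were chosen after seeing the data.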

Additional observations from a re-analysis of the deposited data

Results flagged for a closer look

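Tnfrsf9 was higher in the Skint1 antibody library in Foxp3+ αβ T cells, with a log2 ratio of 0.64, and lower in DETCs, at -0.97, and in cells of the ILC rule, at -2.20, or at -1.64 (-4.27 to 0.59) without barcodes that held genes of other cells. These ratios had opposite signs, and the difference between the groups was not tested, as each holds 1 library per treatment. The Foxp3+ value rests on 14 of 17 and 6 of 12 cells with a Tnfrsf9 UMI. That share was 82.4% with isotype and 50% with Skint1 antibody before thinning, and 40% and 62.5% after it (15 and 8 cells). Its direction thus depended on thinning.

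The cells that met no class rule, 428 in the isotype and 678 in the Skint1 antibody library, entered no comparison and also carried the members above the limit that a count of 0 allows. In these cells Tnfrsf9 was at 93.5 and 92.2 CPM, Tnfrsf18 at 209 and 245 CPM, and Tnfrsf1b at 69.6 and 69.5 CPM. Tnfrsf13b was at 39.8 and 20.4 CPM, the only member among them that was lower by more than 1.5-fold in the Skint1 antibody library. The genes scarce in DETCs were present here, with Tnfrsf4 at 57.4 and 61.3 CPM, Tnfrsf25 at 42.5 and 46.5 CPM and Cd70 at 21.8 and 28.2 CPM. Cd27 was at 51.0 and 50.2 CPM. Markers of DETCs (8 genes) summed to 12817 and 13767 CPM in these cells, against 23276 and 22658 CPM in DETCs, and Langerhans and myeloid genes to 1040.2 and 1799 CPM, against 18.3 and 16.0 CPM. Keratinocyte genes summed to 472 and 745 CPM, against 38.5 and 54.0 CPM in DETCs. These cells thus held much DETC RNA beside that of other types, and the part of each in the levels was not tested.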

How the results depend on the processing

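Tnfrsf9 and Tnfrsf13b were past 1.5-fold in DETCs under every alternative tried, with log2 ratios from -1.04 to -0.78 and from -0.99 to -0.70 over 11 alternatives, against -0.08 to 0.00 for Tnfrsf18 and -0.17 to -0.10 for Tnfrsf1b. The ends were -0.78 for Tnfrsf9 at up to 5% mitochondrial UMIs and -0.99 for Tnfrsf13b under the stricter class rule (DETCs with Trdv4). The differences in shares moved with depth, to -4.40 points for Tnfrsf9 and -2.57 for Tnfrsf13b at 1000 UMIs and to -9.16 and -8.42 without thinning. Without the CPM filter Cd70 was also past 1.5-fold in DETCs, on 6 and 5 UMIs. For αβ T cells over DETCs 4 members were past 2-fold, or 3 without Cd70 when cells were thinned or weighted equally. For the ILC rule over DETCs 6 were, or 7 with Tnfrsf1b when genes had no upper limit and 5 without Tnfrsf13b at up to 5% mitochondrial UMIs. Among values whose reported interval left 0, the sign changed for Tnfrsf18, Tnfrsf1b and Tnfrsf9. Tnfrsf18 of the ILC rule over DETCs changed without the gene limit (-0.67 isotype, -0.47 Skint1 antibody). Tnfrsf1b of αβ T cells over DETCs in isotype changed when thinned (-0.17), without Foxp3+ cells (-0.0084) and without the 10 highest cells (-0.20). Tnfrsf9 of αβ T cells over DETCs in Skint1 antibody changed without Foxp3+ cells (-0.54) and without the 10 highest cells (-1.55). Leaving out the 10 highest cells removes those with most UMIs by construction, and for the other settings the cause was not tested. Of 467 other values, 404 stayed within counting error of the reported one (for counts of genes, within 1.5 times) and 56 moved beyond it. Changes of sign were counted only where the reported interval left 0, so the 56 may include values that crossed 0. Free RNA could not be subtracted from the ILC rule by the planned estimate, since keratinocyte-like barcodes lie in that class. No paired analysis was possible because each group holds 1 library, and for the same reason no replicate could be left out.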
